A study of Mus musculus with 15 samples.

Results

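The Ube2 genes encode the ubiquitin-conjugating enzymes (E2 enzymes) and a few relatives. The family was taken as every gene whose symbol starts with Ube2 followed by a letter, without pseudogene symbols that carry the suffix -ps, which gave 39 of the 38924 genes listed. Of these, 33 reached 1 cpm (the count scaled to the size of the library) in at least 2 of the 15 libraries and were tested among 14967 genes. *Ube2w* is set beside the rest of the family because it was singled out with earlier results of these data known.

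Ubiquitin is activated by an E1 enzyme, passed to the active-site cysteine of an E2, and transferred to a protein with the help of an E3 ligase. The E2 largely decides which kind of chain is built, and so whether the protein is degraded by the proteasome or altered in its activity. Some E2 enzymes carry related modifiers (such as NEDD8 or ISG15) in place of ubiquitin, and in macrophages and microglia the ubiquitin system is known for its part in NF-kappaB and interferon signalling.

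The libraries came from brain myeloid cells of male wild type C57BL/6J (B6) mice killed at 12 months of age, sorted by FACS on the myeloid surface protein CD11b and on high (CD45hi) or low (CD45lo) CD45. Mice were kept on a control chow diet (CD) or were switched at 2 months of age to a western diet (WD) with more fat, milk protein and high fructose corn syrup and less fiber. There were 4 CD CD45hi, 4 CD CD45lo, 3 WD CD45hi and 4 WD CD45lo libraries. The study states that its tables are given per animal, and a library was taken as coming from 1 mouse. CD45hi and CD45lo libraries may share mice, since the study sorted CD11b+CD45+ cells into both fractions. The sources used here do not say which libraries share a mouse.

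Libraries held between 11951412 and 17912272 expected counts, and the smallest measurable value was set at 3 counts, or 0.16 to 0.28 cpm. Both sorted populations held microglia genes. The summed level of 9 microglia markers was 6418 to 7782 cpm in the 7 CD45hi libraries and 13592 to 17504 cpm in the 8 CD45lo libraries, and 4 of 5 tested monocyte markers were called higher in CD45hi cells on each diet. CD45hi libraries are therefore mixtures of microglia and other myeloid cells by their markers. In such bulk samples fewer cells of a type and less RNA per cell cannot be told apart. The libraries CD CD45hi 4 and WD CD45hi 1 lay apart from the other libraries in the principal component analysis, and counts of called genes are given with and without them.

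No E2 gene was called with edgeR between the cell types when tested against a 1.5-fold change, nor between the diets when tested for any change (FDR < 0.05), and *Ube2w* was called between the cell types in WD-fed mice when tested for any change. The E2 genes spanned a wide range of levels, with *Ube2j1* and *Ube2k* among the highest and *Ube2cbp* near 0. Single CD45hi libraries often held the highest or the lowest value of an E2 gene. This is not read as a trait of the family, since 90.6% of all genes spread more in CD45hi cells. The gene nearest to a call was *Ube2w*, which was at 6.08 ± 2.52 cpm (SD, n = 3) in WD CD45hi cells and at 25.0 ± 1.37 cpm (SD, n = 4) in CD CD45hi cells.

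Levels were first compared between family members in TPM, a level per length of transcript. *Ube2j1*, an E2 of the endoplasmic reticulum membrane that takes part in the degradation of misfolded proteins, was among the most abundant, with a mean level over the 4 groups of 213 TPM. *Ube2k*, which builds degradation chains without a separate chain-extending partner, was at 171 TPM. *Ube2d3*, a member of the UBE2D class that works with many E3 ligases, was at 160 TPM, and *Ube2r2*, which serves cullin-RING ligases, at 108 TPM. The 5 most abundant E2 genes of each library made up 44.2% to 58.7% of the summed TPM of the family there.

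Neighbours at the top of this order were not separated by their spread. In WD CD45hi cells *Ube2j1* was at 132 ± 48.3 TPM (SD, n = 3) and *Ube2k* at 147 ± 71.4 TPM (SD, n = 3), the reverse of their order over all groups. *Ube2d3* was the steadiest of the abundant members, at 124 to 187 TPM over the 15 libraries, whereas *Ube2k* ranged from 59.8 to 307 TPM.

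In the middle of the order stood both RAD6 homologues, which ubiquitinate histone H2B and the replication clamp PCNA, with *Ube2b* at 87.3 TPM and *Ube2a* at 19.1 TPM. *Ube2l3*, the partner of RING-between-RING ligases such as parkin, was at 81.0 TPM. *Ube2n*, the E2 that makes signalling chains in Toll-like receptor and DNA damage pathways, was at 22.7 TPM. Its E2-like partners *Ube2v1* and *Ube2v2*, which lack the active-site cysteine, were at 73.0 and 14.6 TPM. *Ube2h*, the E2 of the CTLH ligase complex, was at 53.9 TPM.

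The NEDD8 enzymes *Ube2f* and *Ube2m*, which switch on cullin-RING ligases, were at 30.0 and 25.5 TPM. *Ube2l6*, the E2 for the interferon-induced modifier ISG15, was at 10.7 TPM. *Ube2w*, which is known for attaching ubiquitin to the N-terminus of proteins, was at 16.0 TPM, at place 25 of 33 over all groups. By group it was at place 21 in CD CD45hi, 24 in CD CD45lo, 32 in WD CD45hi and 24 in WD CD45lo cells.

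The lowest levels were those of *Ube2o*, a large enzyme that combines E2 and E3 activity (4.11 TPM), *Ube2d2b* (2.54 TPM), *Ube2t*, the E2 of DNA crosslink repair (1.56 TPM), and *Ube2cbp*, which despite its name is an E3 ligase, also called Ube3d (0.991 TPM). *Ube2t* had no count in 8 libraries and *Ube2cbp* none in 9. The other 6 genes did not reach the filter. *Ube2nl* and *Ube2ql1* had counts in 1 library each, at most 1 and 2 counts, and *Ube2d4*, *Ube2dnl1*, *Ube2dnl2* and *Ube2u* had none. GENCODE M21 lists 37 of the 39 genes as protein coding and *Ube2nl* and *Ube2d4* as processed pseudogenes.

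**Figure D1:**
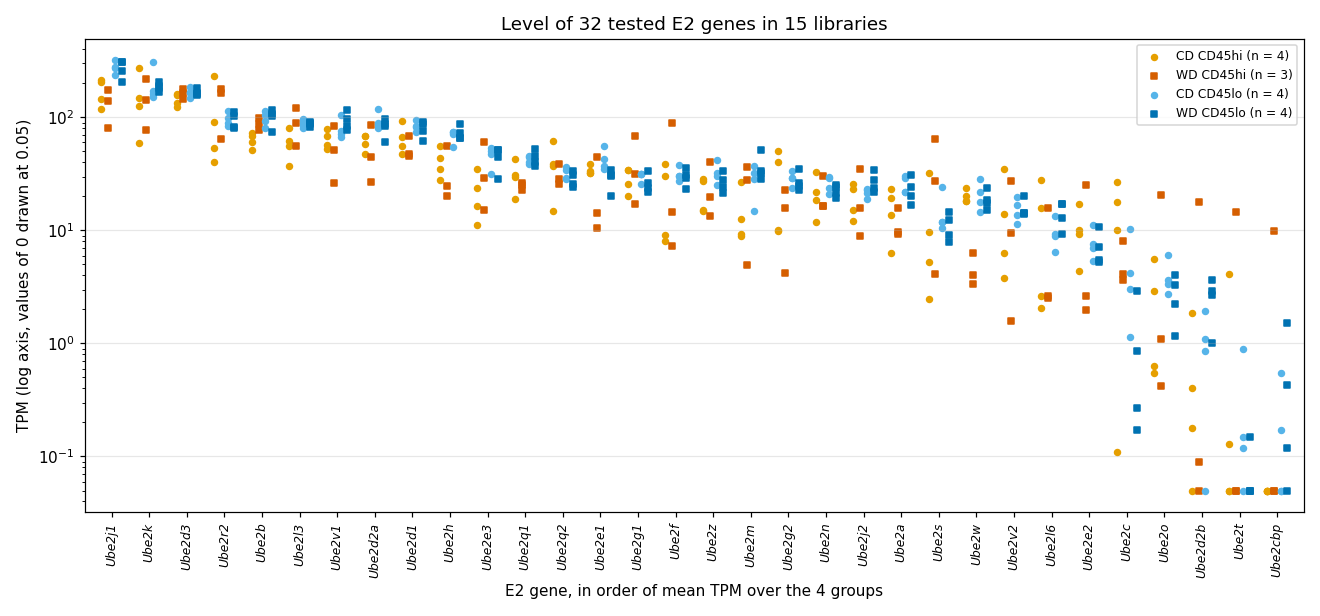
Each point is 1 library, with the level of an E2 gene in TPM on a log axis and 32 of the 33 tested genes in order of their mean over the 4 groups (values of 0 are drawn at 0.05). The genes run from *Ube2j1* (213 TPM) to *Ube2cbp* (0.991 TPM), and the CD45hi points of a gene usually spread more widely than its CD45lo points.

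Summed over the family, the level was 1468 ± 110 TPM (SD, n = 4) in CD CD45hi and 1968 ± 110 TPM (SD, n = 4) in CD CD45lo cells. It was 1573 ± 171 TPM (SD, n = 3) in WD CD45hi and 1924 ± 108 TPM (SD, n = 4) in WD CD45lo cells. The CD45hi libraries (1326 to 1766 TPM) all lay below the CD45lo libraries (1770 to 2053 TPM), by a narrow margin. The direction depended on the scale. In TMM-normalized cpm the sum was 1744 ± 127 (SD, n = 4) in CD CD45hi and 1761 ± 35.0 (SD, n = 4) in CD CD45lo cells, and 1881 ± 286 (SD, n = 3) in WD CD45hi and 1703 ± 68.9 (SD, n = 4) in WD CD45lo cells, and the libraries overlapped on both diets. On TMM-normalized counts the median log2 fold change of the 33 genes between CD45hi and CD45lo cells was 0.27 in WD-fed and 0.12 in CD-fed mice, beside 0.00 and 0.04 over all genes tested. With limma-voom these medians were -0.03 and -0.14, beside -0.26 and -0.22 over all genes.

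The first question was whether CD45hi and CD45lo cells differ in their E2 enzymes, tested with edgeR's quasi-likelihood method (glmTreat) against a 1.5-fold change. In WD-fed mice 0 of 33 E2 genes were called, where 5.18% of all genes were. At an unadjusted p under 0.05 there were 5 of 33 (17.9% of all genes). DESeq2 and limma-voom each called 0 of 33, where they called 876 and 598 of 14967 genes. In CD-fed mice 0 of 33 were called (3.98% of all genes), with 0 of 33 at an unadjusted p under 0.05 (14.0% of all genes). DESeq2 and limma-voom again called 0 of 33, where they called 668 and 542 of 14967 genes. Tested for any change (glmQLFTest), 1 gene was called in WD-fed mice, *Ube2w* (9.11% of all genes), and 0 in CD-fed mice (8.03% of all genes). With the same test and an estimated fold change over 1.5 as a second criterion, which is the other reading of the criteria of the study, it was again *Ube2w* in WD-fed mice (8.91% of all genes) and 0 genes in CD-fed mice (7.76% of all genes).

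The overlap of the libraries was also counted. In WD-fed mice 2 of 33 genes, *Ube2d3* and *Ube2c*, were higher in every CD45hi than in every CD45lo library (10.0% of all genes), and 3, *Ube2j1*, *Ube2w* and *Ube2v2*, were lower (13.4% of all genes). In CD-fed mice no E2 gene separated the libraries in the higher (8.26% of all genes) or the lower direction (8.22% of all genes).

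For some members the data bound the difference closely. The 95% interval of the log2 fold change lay within a 2-fold change in either direction for 8 of 33 genes between the cell types in WD-fed mice (14.3% of all genes) and for 14 of 33 in CD-fed mice (17.9% of all genes). Between the diets it did so for 14 of 33 genes in CD45hi cells (18.1% of all genes) and 17 of 33 in CD45lo cells (29.7% of all genes). *Ube2b*, *Ube2d1*, *Ube2d2a*, *Ube2d3*, *Ube2k*, *Ube2q1* and *Ube2v1* were among those within it in all 4 comparisons. For *Ube2d3* between the diets in CD45lo cells the interval was -0.33 to 0.31. For low members it was wide, as for *Ube2d2b* in CD45hi cells between the diets (-0.40 to 7.10), whose estimate turned to -3.28 without WD CD45hi 1.

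**Figure D2:**
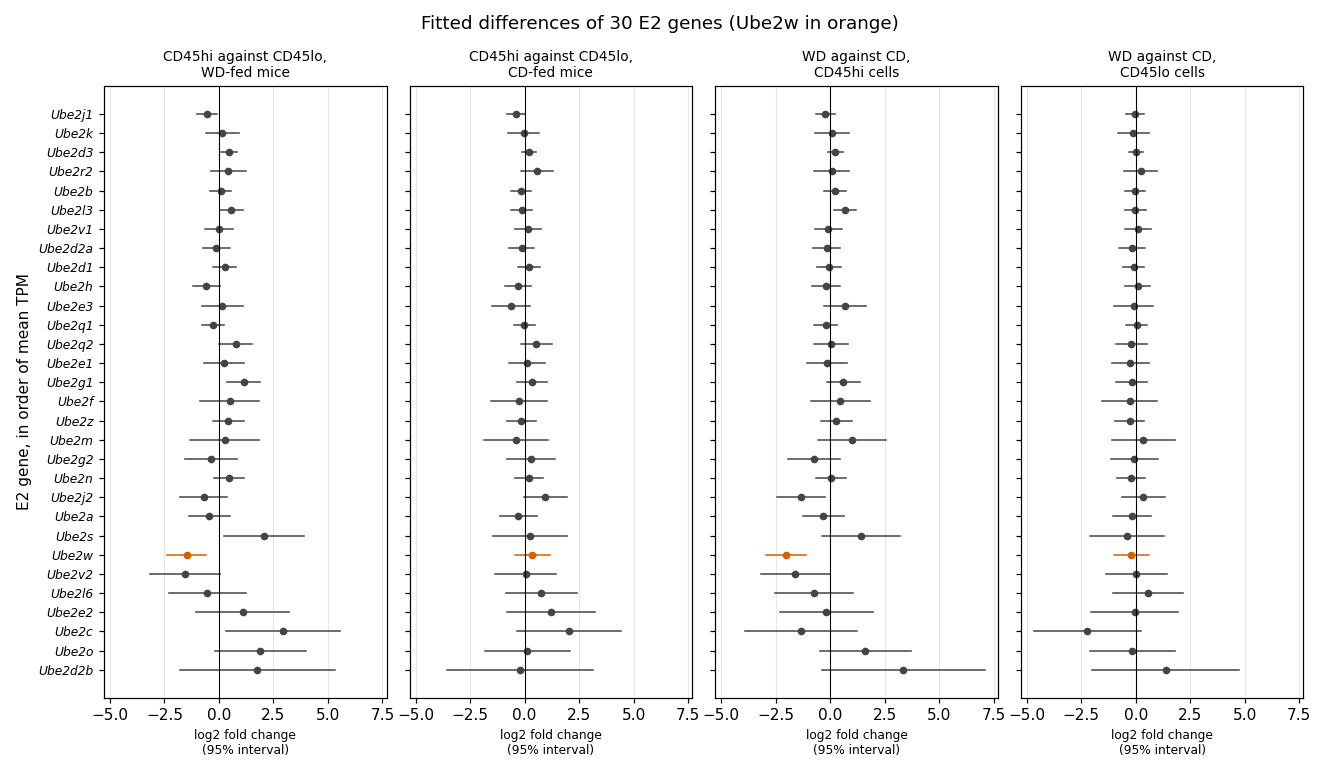
Fitted log2 fold changes (points) with 95% intervals (lines) of 30 E2 genes in 4 comparisons, in order of mean TPM. *Ube2t* and *Ube2cbp*, which had no count in most libraries, are left out. *Ube2w* (orange) was at -1.49 and -2.04 in the comparisons that involve WD CD45hi cells and at 0.34 and -0.21 in the others.

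The second question was whether the diet moved E2 genes within a cell type. In CD45hi cells 0 of 33 were called with edgeR (glmQLFTest), where 0.254% of all genes were. At an unadjusted p under 0.05 there were 6 of 33 genes, among them *Ube2w*, *Ube2cbp*, *Ube2l3*, *Ube2j2* and *Ube2v2* (17.6% of all genes). DESeq2, which called 1030 genes in all where edgeR called 38, called 1 of the 33, *Ube2w*. With limma-voom 0 of 33 were called, and 27 genes in all. No E2 gene was higher in every WD than in every CD library (2.58% of all genes), and *Ube2w* alone was lower in every WD library (3.19% of all genes). In CD45lo cells 0 of 33 were called (0% of all genes), and 0 at an unadjusted p under 0.05 (0.822% of all genes). DESeq2 and limma-voom each called 0 of 33 there, where they called 4 and 0 of 14967 genes. There no gene separated the diets in the higher (1.14% of all genes) or the lower direction (1.29% of all genes).

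The median log2 fold change of the 33 genes between the diets was 0.04 in CD45hi and -0.07 in CD45lo cells, beside -0.02 and 0.00 over all genes. The interaction, which asks whether the cell type difference differs between the diets, was called for 0 of 33 genes with edgeR (0.00668% of all genes). At an unadjusted p under 0.05 there were 2 of 33, *Ube2w* and *Ube2j2* (10.1% of all genes). DESeq2, which called 188 genes in all where edgeR called 1, called *Ube2w*. With limma-voom 0 of 33 were called, and 0 genes in all. Without CD CD45hi 4 and WD CD45hi 1, *Ube2w* was called between the cell types in WD-fed mice and between the diets in CD45hi cells, and no other E2 gene was called in any comparison. In that fit 1036 of 14734 genes were called between the cell types in WD-fed mice and 283 between the diets in CD45hi cells, against 775 and 38 of 14967 with all libraries.

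*Ube2w* (ENSMUSG00000025939) lies on the minus strand of chromosome 1 of GRCm38 (mm10), from 16540790 to 16619489. In CD CD45hi cells the 4 libraries were at 24.8, 26.6, 23.3 and 25.5 cpm. In WD CD45hi cells the 3 libraries were at 8.84, 3.89 and 5.52 cpm. Each WD CD45hi library lay far below each CD CD45hi library.

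In CD45lo cells the CD libraries were at 19.9, 15.2, 26.2 and 17.6 cpm and the WD libraries at 14.4, 15.6, 25.2 and 12.96 cpm, which overlap. All 3 WD CD45hi libraries were below the lowest of the other 12 libraries (12.96 cpm), which held for no other E2 gene and for 1.56% of all genes. In expected counts this was 58.3 to 94.1 reads in the WD CD45hi libraries, well above the floor of 3 counts.

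Between the diets in CD45hi cells the log2 fold change of *Ube2w* was -2.04 (SE 0.44, 95% interval -2.97 to -1.12), a 4.12-fold lower level, with an edgeR FDR of 0.0539, just over the threshold. It was the lowest p and the lowest log2 fold change of the 33 E2 genes, the next being *Ube2v2* (-1.60, and -0.79 without CD CD45hi 2), while 61 of 14967 genes had a lower p. The FDR was 1.51e-05 with DESeq2 and 0.0298 with edgeR 4's newer quasi-likelihood fit, and over the 15 fits that each left out 1 library it was 0.0374 to 0.0964, lowest without WD CD45hi 1. It was 0.0831 with limma-voom, 0.124 when tested against a 1.5-fold change (glmTreat) and 0.783 when only the CD45hi libraries were fitted, where edgeR called 0 genes of the whole table. The log2 fold change was -2.41 to -1.80 over the fits without 1 library, so that the direction held in these fits. The side of the threshold depended on the method and on which library was left out.

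Between CD45hi and CD45lo cells of WD-fed mice the log2 fold change of *Ube2w* was -1.49 (SE 0.43), with an edgeR glmTreat FDR of 0.110 against a 1.5-fold change and a glmQLFTest FDR of 0.0369 for any change. In CD-fed mice it was 0.34 (SE 0.38, edgeR FDR 0.976), and between the diets in CD45lo cells -0.21 (SE 0.38, edgeR FDR 1). The interaction was -1.83 (SE 0.57, edgeR FDR 0.356, DESeq2 FDR 0.0355), so that with edgeR the difference between the diets in CD45hi cells was not shown to differ from that in CD45lo cells.

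Several measures stand beside this result. On the TPM scale *Ube2w* was at 20.1 ± 2.67 (SD, n = 4) in CD CD45hi and 4.57 ± 1.58 (SD, n = 3) in WD CD45hi cells. The effective length that RSEM assigned to it was 1588 to 1896 bases in CD CD45hi and 1475 to 1832 bases in WD CD45hi libraries, which overlap. Its expected counts were fractional in 14 libraries, which happens where RSEM divides reads between genes, and GENCODE M21 places an exon of *Gm38342* on the opposite strand over an exon of *Ube2w*. The library kit does not mark the strand, so reads of such a pair cannot be told apart.

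None of the marker lists had a called gene between the diets in CD45hi cells with edgeR or limma-voom, with 0 to 3 genes of a list at an unadjusted p under 0.05, and the genes that DESeq2 called include the neuronal *Snap25* and the astrocyte genes *Aqp4* and *Aldh1l1*. The 9 microglia markers summed to 6418 to 7782 cpm in CD CD45hi and 7117 to 7645 cpm in WD CD45hi libraries, which overlap. The 7 neutrophil markers summed to 654 to 2138 and 435 to 984 cpm, and the 4 astrocyte markers to 38.7 to 86.1 and 57.5 to 241 cpm. Their part in the level of *Ube2w* was not tested.

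**Figure D3:**
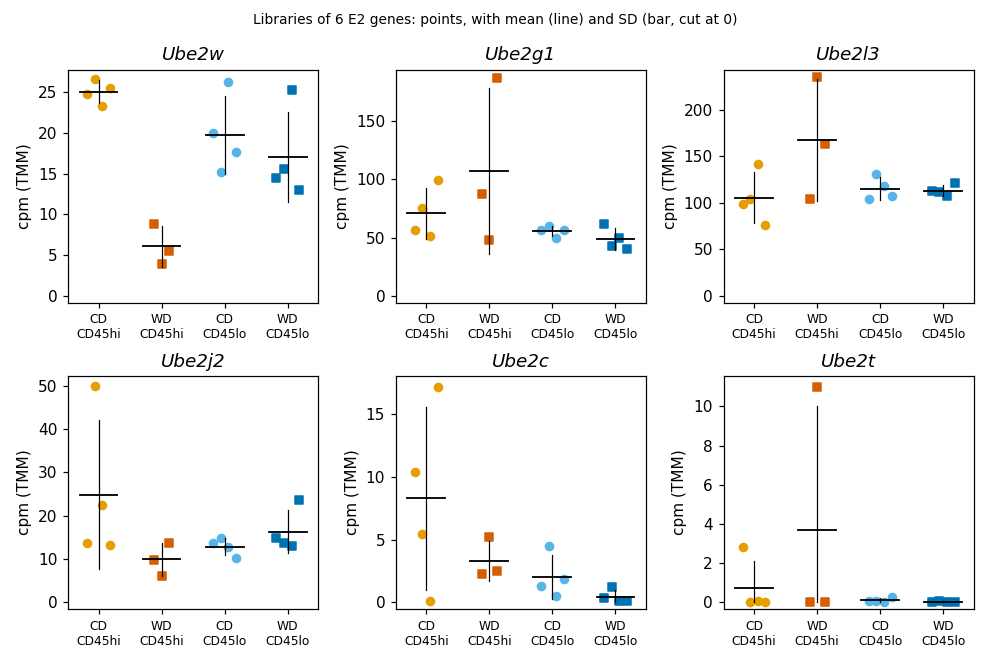
Each panel shows 1 E2 gene in TMM-normalized cpm, with a point for each library, a line at the group mean and a bar for the SD (n = 4, or 3 for WD CD45hi). The 3 WD CD45hi points of *Ube2w* (3.89 to 8.84 cpm) lie below all others, whereas *Ube2g1*, *Ube2j2* and *Ube2t* have single high CD45hi libraries.

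*Ube2g1* encodes an E2 of protein degradation and lies on chromosome 11, from 72607283 to 72686481. It had the third-lowest p between the cell types in WD-fed mice. Its WD CD45hi libraries were at 87.2, 48.2 and 186 cpm and its WD CD45lo libraries at 61.8, 42.8, 49.6 and 40.5 cpm. The groups overlap through WD CD45hi 2 and the group spans a wide range. The log2 fold change was 1.14 (SE 0.36, edgeR FDR 0.187), and without WD CD45hi 2 it was 1.49 (edgeR FDR 0.0345), a call that no other left-out library gave. Without WD CD45hi 3, the highest library, it was 0.47 (edgeR FDR 0.700).

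*Ube2l3* (chromosome 16, 17152013 to 17202649) had the third-lowest p between the diets in CD45hi cells. The WD CD45hi libraries were at 105, 235 and 164 cpm and the CD CD45hi libraries at 99.3, 104, 142 and 76.0 cpm. They overlap, and the log2 fold change was 0.67 (SE 0.25, edgeR FDR 0.175). Without WD CD45hi 2, the highest library, it was 0.35 (edgeR FDR 0.434). In CD45lo cells the gene was among the steadiest, at 104 to 131 cpm on the CD and 107 to 121 cpm on the WD.

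*Ube2j2*, like *Ube2j1* an E2 anchored in the endoplasmic reticulum membrane, lies on chromosome 4 from 155943831 to 155959604. Its CD CD45hi libraries were at 13.8, 50.1, 22.4 and 13.3 cpm and its CD CD45lo libraries at 13.8, 14.7, 12.7 and 10.3 cpm. CD CD45hi 2 is the high value. The log2 fold change between the cell types in CD-fed mice was 0.95 (SE 0.47, edgeR FDR 0.555), between the diets in CD45hi cells -1.32 (SE 0.52, edgeR FDR 0.208), and the interaction was -1.66 (SE 0.70, edgeR FDR 0.432). Without CD CD45hi 2 these were 0.36, -0.73 and -1.07, and with the effective length as an offset the difference between the diets turned to 0.13 (edgeR FDR 0.926).

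The effective length of *Ube2j2* swung with the counts, from 1257 to 2842 bases in CD CD45hi and from 374 to 1158 bases in WD CD45hi libraries. That of *Ube2v2* did so too, at 1421 to 4045 and 906 to 2426 bases, against 3310 to 4040 bases in CD45lo libraries. On the per-length scale *Ube2j2* was at 19.1 ± 6.62 TPM (SD, n = 4) in CD CD45hi and 19.8 ± 13.3 TPM (SD, n = 3) in WD CD45hi cells. RSEM thus assigned the reads of both genes to transcripts of differing length in single CD45hi libraries.

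Among the cell cycle members, *Ube2c* starts and *Ube2s* extends the chains that the anaphase-promoting complex puts on mitotic proteins. *Ube2c* had the lowest p of the family between the cell types in CD-fed mice. Its CD CD45hi libraries were at 10.4, 5.46, 0.0880 and 17.2 cpm and its CD CD45lo libraries at 1.29, 4.46, 0.492 and 1.82 cpm. They overlap through CD CD45hi 3, in which the gene was under the floor of 3 counts.

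In WD-fed mice *Ube2c* was at 2.26, 5.17 and 2.45 cpm in CD45hi and at 0.328, 1.19, 0.110 and 0.0758 cpm in CD45lo libraries, which do not overlap. The values of WD CD45lo 3 and WD CD45lo 4 were under the floor of 3 counts. The log2 fold change was 2.03 (SE 1.13, edgeR FDR 0.538) in CD-fed and 2.94 (SE 1.23, edgeR FDR 0.227) in WD-fed mice. Over the fits without 1 library it was 1.40 (without CD CD45hi 4) to 2.75 in CD-fed and 2.46 to 4.20 in WD-fed mice. *Ube2s* was at 14.7, 2.28 and 33.7 cpm in WD CD45hi and at 2.75 to 5.38 cpm in WD CD45lo libraries (log2 fold change 2.07, SE 0.87, edgeR FDR 0.245, and 1.08 without WD CD45hi 3). GENCODE M21 places an exon of *Tnnc2* over *Ube2c* and an exon of *Rpl28* over *Ube2s* on the opposite strand.

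The 10 markers of cycling cells were also higher in sum in CD45hi libraries, at 130 to 355 cpm, than in CD45lo libraries, at 12.8 to 98.2 cpm. Of the 10, *Mki67*, a marker of dividing cells, was called higher in CD45hi cells on both diets with edgeR, and *Cenpe*, a kinetochore motor, in WD-fed mice. *Mki67* made up most of the sum in CD45hi cells, with means of 180 cpm on the CD and 144 cpm on the WD. In WD-fed mice *Aurkb* was lower in CD45hi (0.600 cpm) than in CD45lo cells (0.802 cpm), and the means of the other markers were higher. Within the CD45hi groups the sum did not follow *Ube2c* library by library. WD CD45hi 2 had the highest *Ube2c* of its group (5.17 cpm) and the lowest sum (130 cpm), and CD CD45hi 4 had the highest *Ube2c* of its group (17.2 cpm) with a sum of 249 cpm. Their part in the level of *Ube2c* was not tested.

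*Ube2t* was at 11.0 cpm (164 counts) in WD CD45hi 2 and at 0 in the other two WD CD45hi libraries. Apart from CD CD45hi 1 (2.82 cpm, 43 counts) no further library held more than 5 counts. *Ube2cbp* was at 5.17 cpm (77 counts) in the same library WD CD45hi 2, at 0 in all other CD45hi libraries and at 15 counts or fewer in CD45lo libraries. For both genes the low p between groups (edgeR FDR 0.134 for *Ube2t* between the cell types in WD-fed mice, 0.163 for *Ube2cbp* between the diets in CD45hi cells) rests on that library. Against 3 counts per library in the lower group, the log2 ratio of the group means is at least 4.18 for *Ube2t* and at least 2.93 for *Ube2cbp*. Both come from a mean that this library carries, and the other WD CD45hi libraries were at 0, so they do not describe the group.

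The RefSeq windows around gene starts (GRCm38.p6, 300 bases that run from upstream of the start to just past it) held 41 windows of 30 of the 39 genes. They were searched on both strands for CCAAT and for TTTGAA, letters known from promoters of cell cycle genes. CCAAT was in 9 of 41 E2 windows and in 37.4% of all windows, and TTTGAA in 4 of 41 and in 17.9%. The windows of *Ube2c* and *Ube2t* are shown because these genes of cell division and crosslink repair were among the 4 lowest p between the cell types in WD-fed mice. The matches are in capitals on the strand of the gene, so that a match on the other strand reads ATTGG or TTCAAA, and in *Ube2c* a pair of CCAAT matches overlaps as CCAATTGG.
Ube2c, chr2:164769679-164769978, plus strand: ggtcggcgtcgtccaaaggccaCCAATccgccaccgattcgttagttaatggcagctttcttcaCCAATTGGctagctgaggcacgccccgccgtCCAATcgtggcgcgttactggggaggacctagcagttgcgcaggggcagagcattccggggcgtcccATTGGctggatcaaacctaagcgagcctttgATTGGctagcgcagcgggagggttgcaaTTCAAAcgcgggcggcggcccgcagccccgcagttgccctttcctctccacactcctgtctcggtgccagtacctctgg
Ube2t, chr1:134962315-134962614, plus strand: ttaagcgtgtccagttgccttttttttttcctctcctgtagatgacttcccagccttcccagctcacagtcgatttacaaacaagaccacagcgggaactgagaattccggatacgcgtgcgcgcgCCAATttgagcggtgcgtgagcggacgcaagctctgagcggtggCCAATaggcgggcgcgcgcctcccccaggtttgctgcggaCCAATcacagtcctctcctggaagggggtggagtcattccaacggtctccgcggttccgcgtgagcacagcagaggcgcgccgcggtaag
*Ube2c* held 6 matches to CCAAT and 1 to TTTGAA, and *Ube2t* 3 to CCAAT and 0 to TTTGAA. *Ube2s* held 0 of either. A match describes the letters of the window and is no measure of binding.

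*Ube2l6* was compared with interferon response genes, since it is known as one. The 11 genes of the interferon list summed to 412 to 967 cpm in CD45hi and 166 to 244 cpm in CD45lo libraries, and 6 of 11 were called higher in CD45hi cells of WD-fed mice and 5 of 11 of CD-fed mice. *Ube2l6* itself was at 28.2, 14.8, 2.11 and 2.90 cpm in CD CD45hi and at 6.77, 10.4, 4.73 and 6.41 cpm in CD CD45lo libraries. It was at 2.82, 2.82 and 15.8 cpm in WD CD45hi and at 6.49, 9.13, 12.5 and 13.5 cpm in WD CD45lo libraries. The groups overlap on both diets (log2 fold change 0.76, SE 0.77, and -0.54, SE 0.84, edgeR FDR 0.902 and 0.899), and without CD CD45hi 1 the first of these turned to -0.10.

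The spread between libraries was larger in CD45hi than in CD45lo cells for 31 of 33 E2 genes, as it was for 90.6% of all genes. The median SD of log2 cpm within a diet was 0.73 in CD45hi and 0.27 in CD45lo cells for the E2 genes, and 1.06 and 0.41 for all genes. The highest of the 15 libraries was a CD45hi library for 29 of 33 genes and the lowest for 28 of 33. These places were not counted over all genes, so they are not read as a trait of the family. The exceptions in spread were *Ube2d1* (0.26 and 0.28) and *Ube2w* (0.37 and 0.38).

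The ratio of the SDs was largest for *Ube2o* (6.28), followed by *Ube2t* (5.29), *Ube2f* (5.22) and *Ube2v2* (4.90). *Ube2o* was at 53.7 cpm in WD CD45hi 1 and at 1.07 to 14.7 cpm in the other CD45hi libraries, and *Ube2f* at 86.3 cpm in the same library and at 7.85 to 46.4 cpm in the others. *Ube2d2b*, an intronless relative of *Ube2d2a*, was at 12.7 cpm there and at most at 1.70 cpm elsewhere. *Ube2v2* was at 41.0, 73.0, 9.50 and 4.25 cpm in the CD CD45hi libraries and at 24.2 to 36.9 cpm in the CD CD45lo libraries. The high values were not all from 1 library, since WD CD45hi 3 was highest for 7 genes and WD CD45hi 1 and WD CD45hi 2 for 5 each.

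**Figure D4:**
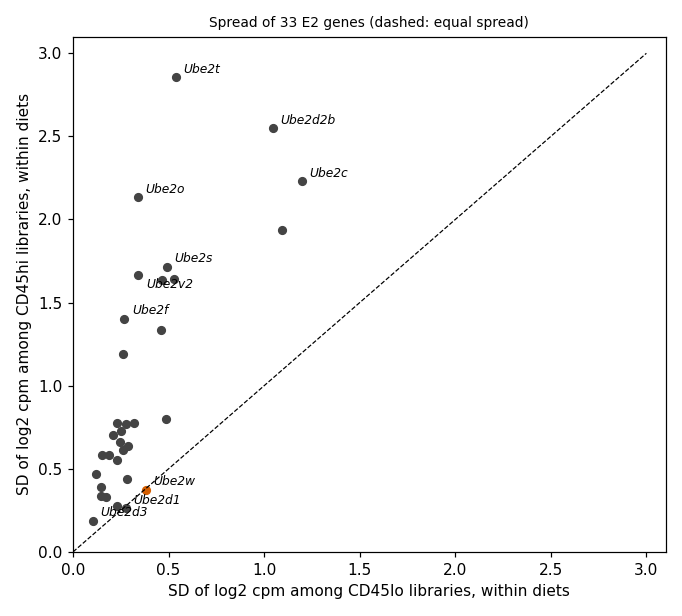
Each point is 1 of 33 E2 genes, with the SD of log2 cpm within diets among CD45lo libraries on the horizontal axis and among CD45hi libraries on the vertical axis (dashed line, equal spread). All but *Ube2w* (orange) and *Ube2d1* lie above the line, *Ube2t*, *Ube2d2b* and *Ube2c* highest.

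The rest of the ubiquitin pathway was counted as lists, beside the shares over all genes. With edgeR, 5.18% of all genes were called between the cell types in WD-fed and 3.98% in CD-fed mice. Between the diets it was 0.254% in CD45hi and 0% in CD45lo cells, and 0.00668% for the interaction. At an unadjusted p under 0.05 the shares were 17.9%, 14.0%, 17.6%, 0.822% and 10.1%, in the same order. At such shares short lists hold few calls, so the counts are not read as a trait of the pathway. Of the 9 E1 enzymes 0 were called in any of the 5 tests with edgeR, and *Uba1*, the main ubiquitin E1, was at 206 ± 81.5 cpm (SD, n = 3) in WD CD45hi and 124 ± 16.4 cpm (SD, n = 4) in WD CD45lo cells (log2 fold change 0.73, SE 0.25, edgeR FDR 0.433, and 0.54 to 1.03 over the fits without 1 library). At an unadjusted p under 0.05 there were 0 or 1 E1 genes in each test. DESeq2 called 1 between the diets in CD45hi cells, where it called 1030 of all genes, and limma-voom called 0. Of 8 E2 or E2-like genes with other names 0 were called in any test by edgeR, DESeq2 or limma-voom, with 0 or 1 at an unadjusted p under 0.05. Of 27 E3 ligases known as partners of single E2 enzymes 0 were called by edgeR or limma-voom, with 0 to 5 at an unadjusted p under 0.05, and DESeq2 called 3 between the diets in CD45hi cells, *Fancl*, *Anapc2* and *Rnf8*.

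Among 12 tested modifier genes, *Fau*, a ubiquitin-like protein fused to a ribosomal protein, was called higher in CD45hi cells of WD-fed mice (log2 fold change 1.70, SE 0.24, edgeR FDR 0.00182). Of 44 tested ubiquitin-specific proteases, which remove ubiquitin, only *Usp2* was called in the 5 tests with edgeR, lower in CD45hi cells of CD-fed mice (-1.69, SE 0.29, edgeR FDR 0.00772). DESeq2 also called it there, and called *Usp49* between the cell types in WD-fed mice and *Usp10*, *Usp36* and *Usp49* between the diets in CD45hi cells. Of 40 proteasome subunits only *Psmb9*, a subunit of the immunoproteasome, was called with edgeR, higher in WD CD45hi than in WD CD45lo cells (1.49, SE 0.22, edgeR FDR 0.00392) and than in CD CD45hi cells (1.23, SE 0.22, edgeR FDR 0.0321). The second of these calls held in 7 of the 15 fits without 1 library (edgeR FDR 0.0196 to 0.0637) and was lost when only the CD45hi libraries were fitted (edgeR FDR 0.783). DESeq2 called *Psmb9* in both comparisons and in the interaction, and *Psma2*, a subunit of the core particle, between the diets in CD45hi cells.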

How the data were processed

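The authors sorted the cells, made poly(A)-selected libraries with a kit that does not mark strand, trimmed the reads and estimated expression with RSEM 1.2.12 on mm10. They deposited, for each gene and library, an expected count, which is not normalized and divides reads that match several genes, and a TPM value, which is scaled per length and to the library total. The deposited tables also hold RSEM's effective length. The tool version and build are also in the submitters' processing notes, and the annotation release is not given in the sources used here.

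After rounding, genes were kept if 2 or more libraries reached 1 cpm. TMM normalization and edgeR 4.0.16 were used (earlier quasi-likelihood form, R 4.3.3) in 1 fit of all 15 libraries and 4 groups, after the study's methods. The criterion of a 1.5-fold change between cell types was applied as a test (glmTreat). Genes with an FDR under 0.05 (Benjamini-Hochberg over 14967 genes) were called. The SE of a log2 fold change is its size over the square root of F. SDs of log2 cpm used a prior count of 2. Floors and intervals of counts cover counting error only. The members and lists were chosen with earlier results of these data known. Members described in full were *Ube2w*, any called, and the 3 with the lowest p in each test, and *Ube2s*, *Ube2l6* and the high libraries of other members were chosen after their values were seen. Groups came from sample titles. Libraries of the 2 cell types with the same number in their titles did not deviate together (r -0.0221 to 0.0692 over 7 pairs). A second numbering of the libraries gave r -0.000328 to 0.0692. Neither numbering was taken as pairs. Such r values cannot show that 2 libraries came from different mice, so a pairing may have been ignored. Alternatives were DESeq2 1.42.0, limma-voom (limma 3.58.1), other normalization, filters, forms of the test, blocks and leaving out each library. The computation was tested on simulated counts. Coordinates are from GENCODE M21. A few genes of the family and the lists enter the counts but are not reported here by name.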

Additional observations from a re-analysis of the deposited data

Results flagged for a closer look

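Of 96 sets of 4 libraries (an E2 gene in a group), 5 held a library far from the other 3 by Dixon's test, and chance alone sets apart about 1 in 20. *Ube2f*, the NEDD8 enzyme, was high in WD CD45lo 2 (32.5 cpm, the others 23.7 to 24.9 cpm). *Ube2h* was low in CD CD45lo 3 (129 cpm, the others 169 to 177 cpm). *Ube2k* was high in CD CD45lo 1 (168 cpm, the others 95.9 to 103 cpm). *Ube2s* was high in CD CD45lo 2 (9.13 cpm, the others 3.81 to 4.29 cpm), the library with the highest *Ube2c* of its group (4.46 cpm). *Ube2t* was high in CD CD45hi 1 (2.82 cpm, the others 0 to 0.0880 cpm). The groups of 3 libraries, WD CD45hi, were not tested in this way.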

How the results depend on the processing

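The count of called E2 genes, 0 in each of the 5 tests, rose to 1 under some settings, and the gene was *Ube2w* except where named. Between the cell types in WD-fed mice the count was 1 with glmQLFTest for any change, 1 with glmQLFTest and a fold change over 1.5 (chosen after seeing the data), 0 to 1 over the fits that left out 1 library (*Ube2w* without WD CD45hi 1, *Ube2g1* without WD CD45hi 2), and 1 without both CD45hi libraries set apart in the principal component analysis, an alternative chosen after seeing the data. Between the diets in CD45hi cells it was 1 with DESeq2, with the edgeR 4 form, with a filter of 1 cpm in at least 4 libraries, with the effective length as an offset and without those 2 libraries (the last pair chosen after seeing the data), and 0 to 1 over the left-out libraries (1 without WD CD45hi 1). For the interaction it was 1 with DESeq2. Over all genes these settings called 1030 (DESeq2), 252 (edgeR 4 form), 69 (filter), 66 (effective length), 283 (without 2 libraries) and 107 (without WD CD45hi 1) in CD45hi cells between the diets, against 38 in the reported fit, and 0 when only the CD45hi libraries were fitted. Over all genes DESeq2 called 4 in CD45lo cells (edgeR 0) and 188 for the interaction (edgeR 1). The count of E2 genes stayed at 0 in CD-fed mice and in CD45lo cells under every setting run. Over the left-out libraries the count was 0 to 0 in CD-fed mice, in CD45lo cells and for the interaction. In all, 29 log2 fold changes of 15 genes were run under each setting whose filter kept the gene. *Ube2t* and *Ube2cbp* were kept in 13 of the 15 fits without 1 library. Both fell below the filter without WD CD45hi 2, so their direction was not checked without that library. The direction turned under some setting for 3 of the 29, none of them called. The first was *Ube2l6* between the cell types in CD-fed mice (-0.10 without CD CD45hi 1, to 1.11 over the left-out libraries). The others were *Ube2j2* between the diets in CD45hi cells (0.13 with the effective length as an offset) and *Ube2d2b* there. *Ube2d2b* was at -3.28 without WD CD45hi 1, to 4.98 over the left-out libraries, and at -3.58 without both CD45hi libraries set apart. With a replicate block by the numbers in the sample titles the counts were 0 in all 5 tests, and the log2 fold change of *Ube2w* between the diets in CD45hi cells was -2.14 (edgeR FDR 0.160). A block by a second numbering of the libraries paired the WD libraries differently. It gave 0 E2 calls between the cell types on each diet and for the interaction. Over all genes it called 354 between the cell types in WD-fed and 413 in CD-fed mice, against 775 and 595 in the reported fit. The median log2 fold change of the E2 genes was then -0.04 and -0.15, beside -0.25 and -0.21 over all genes. The cause of these differences was not tested. Ordering by cpm per kilobase in place of TPM left 31 of 33 genes at their place. Genes under 0.16 to 0.28 cpm could not be measured.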
